A study of Mus musculus with 12 samples.

Results

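The hnRNP and SR splicing factors are 42 genes whose proteins bind pre-messenger RNA, or act on proteins that do, and steer which exons are kept. The members were chosen from KO against WT differences in these arrays: the group was gathered around 3 of its genes, Hnrnph2, Rbm45 and Snrnp27, whose signal differed between knockout (KO) and wild-type (WT) cortex, and it holds 20 hnRNP genes, 10 SR genes, 8 further RNA-binding regulators, 2 U-snRNP protein genes and 2 kinases of SR proteins. A member counted when a probe set named that gene and no other. By this rule 40 of the 42 genes had 118 probe sets, out of 34958 on the array that named 1 gene, and 112 of these probe sets, for the same 40 genes, were bright enough to be tested. Hnrnpa3 was named only beside a second gene, and no probe set was named for Srsf7 in the annotation used here.

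RNA was measured in cortex of mouse embryos at embryonic day 14. The 4 groups were caudal cortex of AP2gamma (Tfap2c) knockout embryos, caudal cortex of wild-type embryos, rostral KO cortex and rostral WT cortex, with 3 arrays each and 12 in all. Caudal KO arrays carried animal numbers 1, 2 and 13, and caudal WT arrays 4, 6 and 14. Rostral KO arrays carried 7, 8 and 15, and rostral WT arrays 10, 12 and 16. No number was shared between groups, so by the labels no animal gave both pieces. Whether different numbers could stand for the same embryo is not given in the sources used here, and the fit treated all arrays as independent. How and in which cells the gene was deleted, and the strain, are not given in the sources used here. The deposited values are read here as log2 signals from their range, and differences below are on that scale, where 1 unit is a doubling. They come from 1 limma fit with standard errors (SE) taken from all 12 arrays.

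Splicing factors of these families compete at short sequences in exons and the introns beside them. SR proteins mostly favour inclusion of an exon when they bind inside it, hnRNP proteins often oppose inclusion, and the outcome depends on where each binds. In the developing cortex a change from Ptbp1 in progenitors to Ptbp2 in young neurons, together with Nova and Rbfox proteins, sets up the neuronal splicing program. Tfap2c encodes AP2gamma, a transcription factor found in cortical progenitors.

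The targeted gene, Tfap2c, read 7.71, 7.86 and 7.44 in caudal KO against 9.19, 8.84 and 8.64 in caudal WT, and rostrally 8.11, 8.63 and 8.09 in KO against 9.06, 9.00 and 8.54 in WT, on its brightest probe set. Caudal groups did not overlap, and in rostral cortex KO animal 8 lay above WT animal 16. On the other 2 tested probe sets of Tfap2c, KO lay below WT without overlap in both regions, and 1 of them passed in the mean of both regions at -0.94 ± 0.13 (limma, adjusted p = 0.0433). Where the probes lie relative to the deleted part is not known here, so the remaining signal checks the labels only by direction. All 8 basal progenitor markers had a lower mean in KO over both regions (median difference -0.18), and Neurod4, a proneural factor, passed the test at -2.26. Xist, the RNA of the inactive X, was at 11.32 on caudal WT array 6 and 11.89 on rostral WT array 12 and at most 5.48 on the other arrays. Vascular and meningeal markers (8 tested) averaged 7.71 on rostral KO array 15 and 5.77 to 6.44 elsewhere. In bulk tissue, fewer cells of a type and less RNA per cell cannot be told apart.

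Hnrnph2, an hnRNP of the H and F subfamily that binds G-rich stretches, was higher in KO than in WT cortex in both regions. Its only probe set read 10.48, 10.67 and 10.47 in caudal KO against 10.12, 9.98 and 10.37 in caudal WT. In rostral cortex it read 10.72, 10.85 and 10.60 in KO against 10.32, 10.16 and 10.10 in WT. Every KO array lay above every WT array within each region, by the smallest margin between caudal KO animal 13 and caudal WT animal 14. The difference was 0.38 ± 0.11 (SE) in caudal and 0.53 ± 0.11 in rostral cortex, which is 1.30-fold and 1.45-fold. Hnrnph2 is the only member on the X chromosome (X:134601179-134607060, GRCm38.p6). Without the WT arrays of high Xist the differences were 0.295 and 0.52.

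Rbm45, an RNA-binding protein with several RNA recognition motifs (2:76369959-76383768), had the same pattern. It read 10.29, 10.24 and 10.06 in caudal KO against 9.78, 9.75 and 9.99 in caudal WT. In rostral cortex it read 10.46, 10.56 and 10.17 in KO against 9.85, 9.73 and 9.89 in WT. The groups again did not overlap in either region, and KO animals 13 and 15 were the lowest of their groups. The difference was 0.36 ± 0.11 in caudal and 0.57 ± 0.11 in rostral cortex (1.28-fold and 1.49-fold). With animals 1 to 12 alone these were 0.50 and 0.72, and for Hnrnph2 0.53 and 0.55. Without the arrays numbered 13 to 16, KO minus WT was thus larger for Rbm45 in both regions and for Hnrnph2 in caudal cortex, and for Hnrnph2 in rostral cortex it moved by less than its SE.

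Snrnp27, a protein of the U4/U6.U5 tri-snRNP (6:86675169-86684491), was lower in KO in rostral cortex only on its brighter probe set, 1415714_a_at. That probe set read 11.07, 10.87 and 11.12 on rostral KO arrays against 11.34, 11.38 and 11.47 on rostral WT arrays, a difference of -0.38 ± 0.08. In caudal cortex it read 11.23, 11.32 and 11.20 in KO against 11.27, 11.17 and 11.38 in WT, a difference of -0.02 ± 0.08, with overlapping groups. The second probe set of the gene, 1460697_s_at, went the other way in rostral cortex, with 11.14, 10.91 and 11.05 in KO against 10.95, 11.00 and 10.70 in WT and a difference of 0.15. Averaging both probe sets left -0.11 in rostral cortex. The probe sets of Snrnp27 therefore gave opposite signs, whereas Hnrnph2 and Rbm45 have 1 tested probe set each and no such check. These 3 genes were chosen for their KO against WT difference, so their values are a description and carry no p-value.

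**Figure D1:**
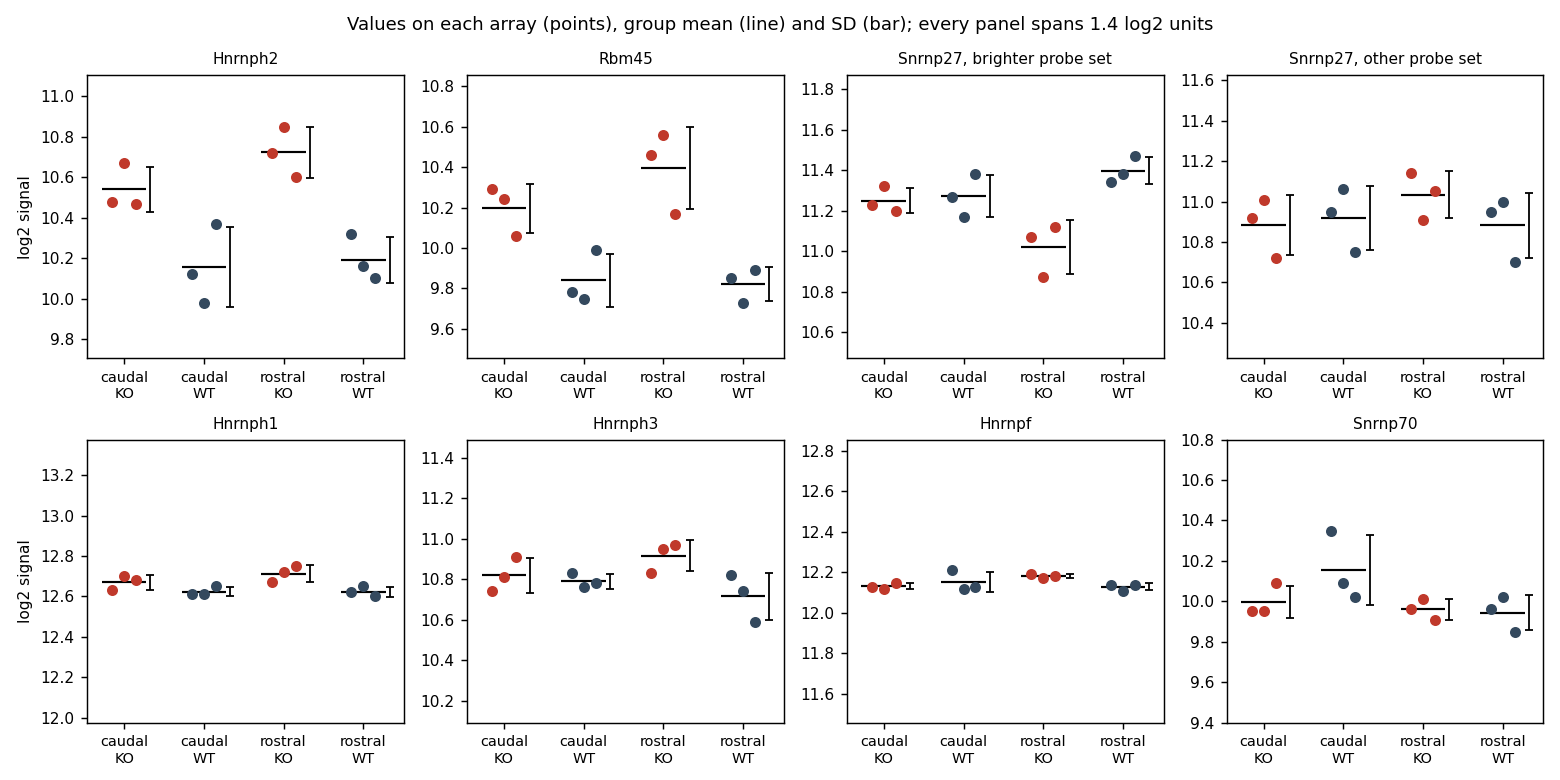
Log2 signal (vertical axis) on each of the 12 arrays for Hnrnph2, Rbm45, both probe sets of Snrnp27, the brightest probe sets of the paralogs Hnrnph1, Hnrnph3 and Hnrnpf, and Snrnp70; points are arrays, lines group means and bars SD (n = 3), and every panel spans 1.4 units. KO points of Hnrnph2 and Rbm45 lie above WT points in both regions, those of Snrnp27 lie below WT in rostral cortex on 1 probe set only, and the paralogs move by 0.20 or less.

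The nearest relatives of Hnrnph2 did not show a difference of its size on their brightest probe sets. Hnrnph1, its close paralog, read 12.63, 12.70 and 12.68 in caudal KO against 12.61, 12.61 and 12.65 in caudal WT, and rostrally 12.67, 12.72 and 12.75 in KO against 12.62, 12.65 and 12.60 in WT. Its difference was 0.05 ± 0.05 in caudal and 0.09 ± 0.05 in rostral cortex, the second without overlap. Hnrnph3 read 10.74, 10.81 and 10.91 in caudal KO against 10.83, 10.76 and 10.78 in caudal WT, and rostrally 10.83, 10.95 and 10.97 in KO against 10.82, 10.74 and 10.59 in WT (0.03 ± 0.08 and 0.20 ± 0.08). The rostral groups of Hnrnph3 were separated by only 0.01. Hnrnpf, which binds the same G-rich runs, read 12.13, 12.12 and 12.15 in caudal KO against 12.21, 12.12 and 12.13 in caudal WT, and rostrally 12.19, 12.17 and 12.18 in KO against 12.14, 12.11 and 12.14 in WT (-0.02 ± 0.05 and 0.05 ± 0.05). Each paralog thus stood at 0.20 or less on its brightest probe set. Snrnp70, the U1 snRNP protein set beside Snrnp27, read 9.95, 9.95 and 10.09 in caudal KO against 10.35, 10.09 and 10.02 in caudal WT, and rostrally 9.96, 10.01 and 9.91 in KO against 9.96, 10.02 and 9.85 in WT. Its groups overlapped in both regions, with differences of -0.16 ± 0.09 and 0.02 ± 0.09 on its brightest probe set. Over its 3 tested probe sets the difference ran from -0.555 to 0.036 in caudal and from 0.019 to 0.666 in rostral cortex. The values -0.555 and 0.666 came from the dimmest of them, at a mean signal of 4.24.

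Dimmer probe sets of the same paralogs read differently in rostral cortex. The Hnrnph1 probe set 1437267_x_at had 7.69, 8.13 and 7.69 on rostral KO arrays against 7.45, 7.16 and 7.00 on rostral WT arrays, a difference of 0.63. The Hnrnpf probe set 1437099_x_at differed by 0.44 there, and its other probe sets by -0.02 and -0.18. An ID ending in x_at marks a probe set some of whose probes can also match other sequences. So the size of the rostral difference of Hnrnph1 and Hnrnpf depended on the probe set read.

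Upstream sequences of the 3 genes are shown because the deleted gene encodes a DNA-binding protein with a known palindromic consensus. They are the 250 bases before a start site in RefSeq's promoter table on GRCm38.p6, written 5′ to 3′ on the gene's strand. The AP2 consensus GCCNNNGGC was searched on both strands, and a match would stand in capitals. The windows are X:134600929-134601178 (+) for Hnrnph2, 2:76369734-76369983 (+) for Rbm45 and 6:86684492-86684741 (-) for Snrnp27. The last 25 bases of the Rbm45 window lie inside the widest annotated span of the gene.
Hnrnph2: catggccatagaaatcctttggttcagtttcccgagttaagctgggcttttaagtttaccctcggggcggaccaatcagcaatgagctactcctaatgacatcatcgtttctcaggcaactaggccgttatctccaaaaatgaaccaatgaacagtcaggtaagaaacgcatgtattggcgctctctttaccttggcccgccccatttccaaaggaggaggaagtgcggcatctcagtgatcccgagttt
Rbm45: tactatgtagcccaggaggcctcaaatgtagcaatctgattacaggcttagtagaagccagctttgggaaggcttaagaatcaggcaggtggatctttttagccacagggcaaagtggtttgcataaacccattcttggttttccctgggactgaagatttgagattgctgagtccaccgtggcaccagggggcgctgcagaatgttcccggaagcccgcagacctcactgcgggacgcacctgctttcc
Snrnp27: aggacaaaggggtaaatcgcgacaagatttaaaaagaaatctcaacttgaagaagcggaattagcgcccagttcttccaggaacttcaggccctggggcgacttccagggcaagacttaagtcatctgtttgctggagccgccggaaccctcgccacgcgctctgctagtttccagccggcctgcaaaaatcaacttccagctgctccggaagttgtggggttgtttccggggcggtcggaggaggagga
The letters of the consensus do not occur in the windows of Hnrnph2, Rbm45 and Snrnp27. Srsf1, the SR gene with the largest rostral difference, has 2 matches in its window (11:88047123-88047372), which lies wholly inside the span of the gene (11:88046499-88053757) and is not printed. Of the 37 members with such a window, 15 had a match in at least 1 window (40.5%), as did 15.4% of 27025 genes in the table. Counted by window, 21 of 50 member windows (42%) and 13.7% of 32851 windows held a match. The median GC content was 64% in the member windows and 52.4% in all, and its part in these shares was not tested. A match is no evidence of binding.

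Across the family, KO minus WT was small in caudal cortex. The 40 tested members had a median difference of 0.01 and 21 of them were higher in KO. The values ran from -0.35 for Ptbp1 to 0.46 for Rbfox2 on their brightest probe sets. Over all tested probe sets of the gene they ran from -0.35 to 0.08 for Ptbp1 and from -0.21 to 0.46 for Rbfox2. The median size without sign was 0.05 against 0.10 over all 11785 genes tested. These medians were not matched for brightness: all 40 members were above the filter on all 12 arrays, whereas 3 arrays sufficed for a test. In caudal cortex, 2 members, Hnrnph2 and Rbm45, had all KO arrays above all WT arrays, where 3.84% of all genes did. Hnrnpu, a nuclear scaffold protein, was the 1 member with all caudal KO arrays below WT (3.67% of all genes): it read 12.19, 12.14 and 12.21 in caudal KO against 12.38, 12.23 and 12.24 in caudal WT, a difference of -0.11 ± 0.06. That was on its brightest probe set. Over its 5 tested probe sets the caudal difference ran from -0.17 to 0.11, with 2 higher in KO.

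In rostral cortex more members were higher in KO. The median was 0.07, 27 of 40 members (67.5%) were higher, and over all genes the median was -0.02 and 45% were higher. Without Hnrnph2, Rbm45 and Snrnp27 the median was also 0.07, with 25 of 37 members higher. All KO arrays lay above all WT arrays for 12 members, or 30% of 40, where 5.46% of all genes did. They are Hnrnpa2b1, Hnrnpab, Hnrnpf, Hnrnph1, Hnrnph2, Hnrnph3, Hnrnpr, Hnrnpul1, Ptbp2, Rbm45, Srsf1 and Srsf2, and 8 of the 12 differed by less than 0.25. Of these 12, Hnrnpab, Hnrnpf, Hnrnpr, Ptbp2 and Srsf2 had at least 1 other probe set that was lower in rostral KO. The opposite separation was found for 2 members, Hnrnpll and Snrnp27, and for 7.50% of all genes. That was on their brightest probe sets, and the second probe set was higher in rostral KO, by 0.07 for Hnrnpll and 0.15 for Snrnp27. The median size without sign in rostral cortex was 0.11 for members and 0.12 for all genes, again not matched for brightness. Both regions gave a separation in the same direction for Hnrnph2 and Rbm45 alone among members, and for 1.18% of all genes, of which 0.501% were higher and 0.679% lower in KO. No member was separated in opposite directions in the 2 regions, as 0.246% of all genes were.

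By adjusted p-value 0 of 40 members passed 0.05 in caudal cortex, 0 in rostral cortex and 0 in the mean of both regions, as did 0% of all genes in caudal cortex, 0% in rostral cortex and 0.0170% in the mean (limma with Benjamini-Hochberg adjustment over 21288 probe sets). At an unadjusted p under 0.05 the counts were 3, 7 and 8 members, beside 3.92%, 6.41% and 7.21% of all genes. The members were gathered with the KO against WT differences known, so nothing is read from these counts.

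**Figure D2:**
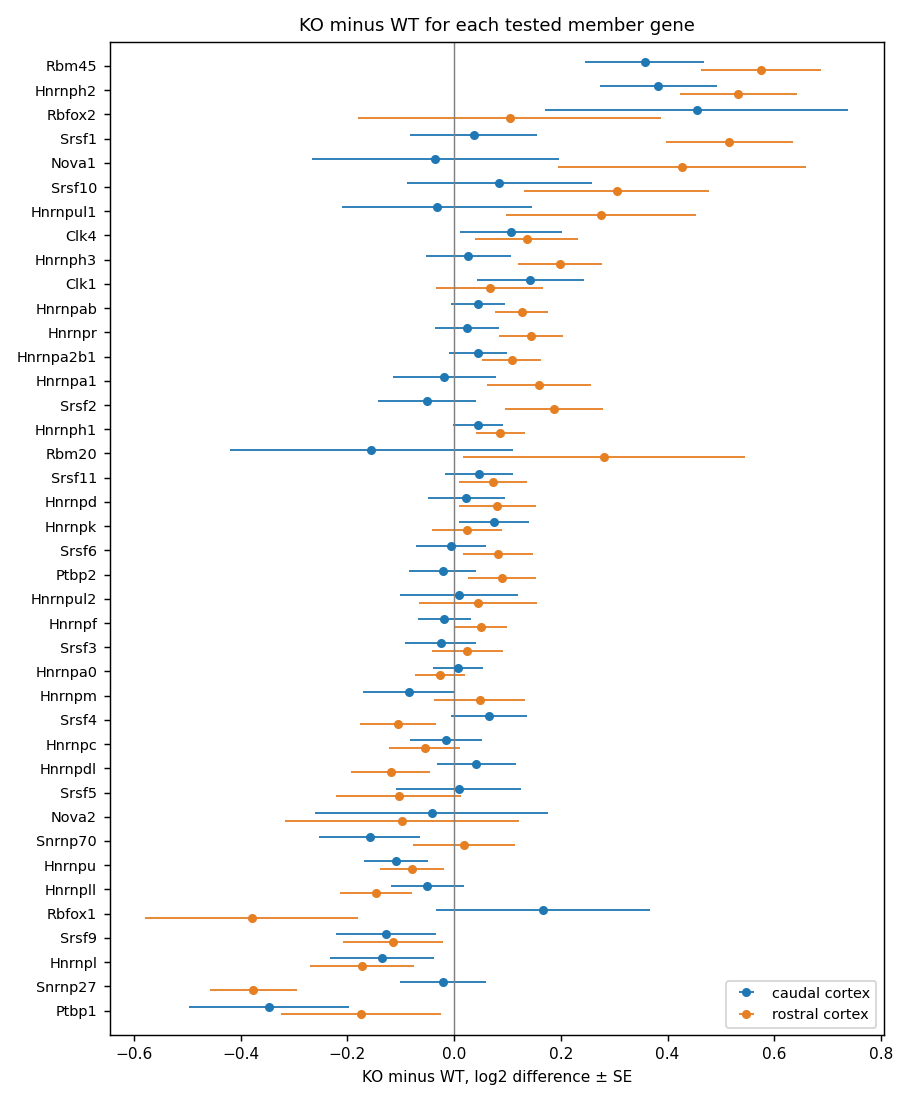
KO minus WT on the log2 scale with its SE for each of the 40 tested member genes (brightest probe set), in caudal and in rostral cortex, ordered by the mean of both. Rbm45 and Hnrnph2 are the members furthest to the right in both regions together, and Srsf1 and Nova1 are right of 0.4 in rostral cortex only.

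Among the 19 tested hnRNP genes, 11 were higher in KO in caudal cortex (median 0.01) and 13 in rostral cortex (median 0.05). Hnrnph2 was the only one beyond 0.3 in either region. Hnrnpab, an A/B-type hnRNP, read 13.12, 13.09 and 13.08 in rostral cortex of KO against 13.02, 12.99 and 12.89 in that of WT, without overlap. The difference was 0.13 ± 0.05 there and 0.05 ± 0.05 in caudal cortex. That was on probe set 1455855_x_at alone: the other 6 probe sets of Hnrnpab ran from -0.68 to 0.51 in rostral cortex, with 3 of them lower in KO, among them 1415914_at at -0.09, which is almost as bright. Averaged over its probe sets, the rostral difference of Hnrnpab was 0.003 ± 0.092. Hnrnpl and Hnrnpll, which bind CA repeats, were lower in KO in rostral cortex by -0.17 and -0.15, with overlapping groups for Hnrnpl. The second probe set of Hnrnpll was at 0.07 there.

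Hnrnpa2b1, which binds UAG-containing sites, shows how much rested on the probe set. Its brightest probe set, 1420365_a_at, showed a difference of 0.05 ± 0.06 in caudal and of 0.11 ± 0.06 in rostral cortex. Probe set 1433829_a_at read 11.50, 11.96 and 11.76 on rostral KO arrays against 11.25, 11.16 and 10.80 on rostral WT arrays, a difference of 0.67. The other 2 tested probe sets of the gene differed by 0.59 and 0.46 there, and in caudal cortex these 3 dimmer probe sets gave 0.02 to 0.25. All 4 probe sets were higher in rostral KO, without overlap on 3 of them, as for 5.64% of the 21288 probe sets tested.

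Among the 9 tested SR genes, 5 were higher in KO in caudal cortex (median 0.01) and 6 in rostral cortex (median 0.07). Srsf1, the founding SR protein, read 12.42, 12.59 and 12.43 in caudal KO against 12.59, 12.42 and 12.32 in caudal WT. In rostral cortex it read 12.58, 12.91 and 12.77 in KO against 12.47, 12.28 and 11.96 in WT. The caudal groups overlapped and the rostral groups did not, with differences of 0.04 ± 0.12 and 0.52 ± 0.12. The other 5 tested probe sets of Srsf1 were higher in rostral KO by 0.01 to 0.35, and the mean over its probe sets gave 0.20. Srsf10, a splicing repressor when dephosphorylated, was higher in rostral KO by 0.31 ± 0.17 with overlapping groups on its brightest probe set. Its 4 tested probe sets ran from -0.09 to 0.31 there, with 3 higher in KO. Srsf9 was lower by -0.13 ± 0.09 in caudal and -0.11 ± 0.09 in rostral cortex.

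Of the regulators that mark cell states, Ptbp1, the progenitor form of the polypyrimidine tract binding protein, read 10.00, 10.02 and 9.74 in caudal KO against 10.55, 10.32 and 9.93 in caudal WT. In rostral cortex it read 10.09, 10.06 and 9.97 in KO against 10.25, 10.43 and 9.97 in WT. Groups overlapped in both regions, and the differences were -0.35 ± 0.15 and -0.18 ± 0.15. Its neuronal counterpart Ptbp2 differed by -0.02 ± 0.06 and 0.09 ± 0.06 on its brightest probe set. The second probe set of Ptbp2, 1423471_at, had the opposite signs, at 0.22 in caudal and -0.31 in rostral cortex, with overlapping groups. Nova1, a neuronal KH-domain factor, differed by -0.04 ± 0.23 and 0.43 ± 0.23, and Nova2 by -0.04 and -0.10. The kinases Clk1 and Clk4, which phosphorylate SR proteins, were higher in KO by 0.07 to 0.14 in both regions on their brightest probe sets, with overlapping groups, while the second probe set of Clk4 was at 0.15 in caudal and -0.11 in rostral cortex.

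**Figure D3:**
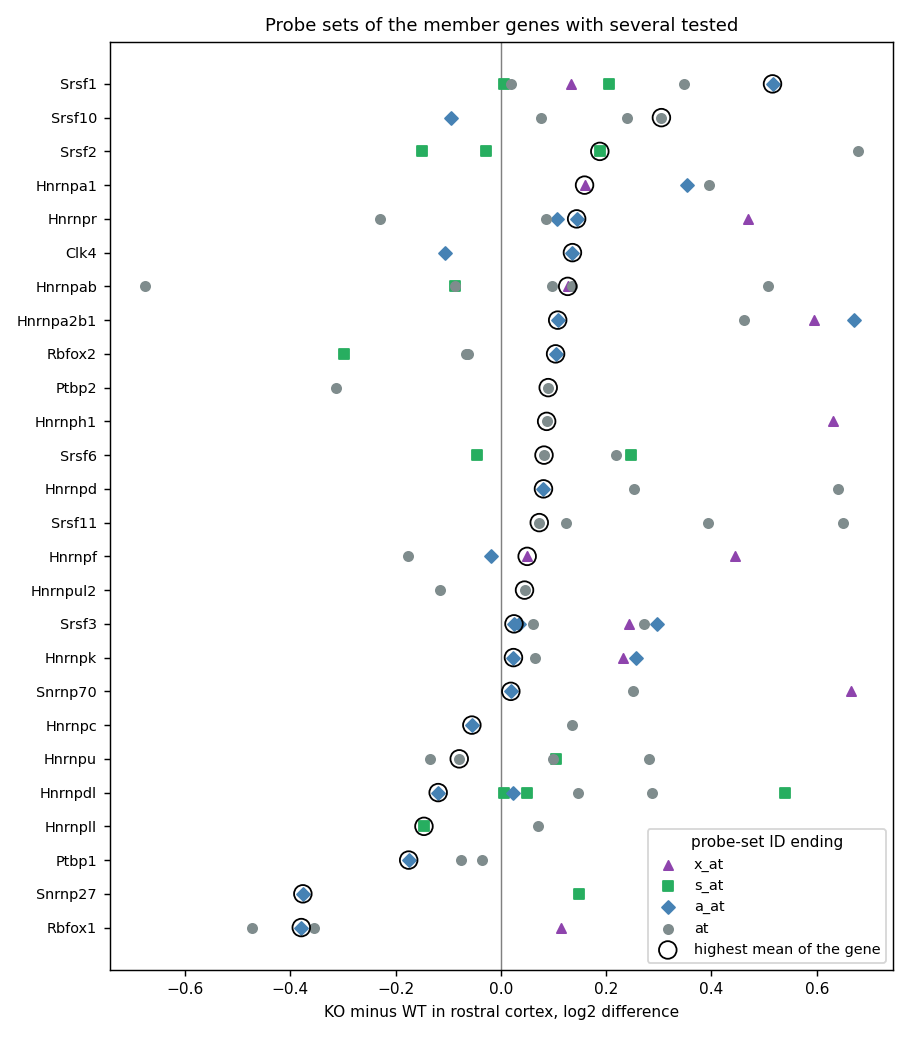
KO minus WT in rostral cortex on the log2 scale for every tested probe set of the 26 member genes with more than 1, by the ending of the probe-set ID; rings mark the brightest probe set of each gene. All x_at probe sets lie right of 0, and for Snrnp27, Hnrnpab and Rbfox1, among others, probe sets of 1 gene lie on both sides.

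Of the 26 members with several tested probe sets, all probe sets agreed in sign for 10 genes in rostral cortex and for 7 in caudal cortex. Over all 112 member probe sets, 78 were higher in rostral KO (median 0.09, against -0.02 over the 21288 probe sets tested). The 12 member probe sets ending in x_at were all higher in rostral KO, with a median of 0.24, while the 1358 such probe sets on the whole array had a median of 0.07. Those ending in s_at, 15 in number, had a median of 0.01. In caudal cortex the same 12 x_at probe sets had 6 higher in KO and a median of -0.01.

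The median deviation of the 12 x_at probe sets from their own means moved with single arrays. It was 0.11, 0.28 and 0.05 on rostral KO arrays 7, 8 and 15, against 0.02, -0.05 and -0.30 on rostral WT arrays 10, 12 and 16. The most extreme arrays were rostral KO 8 and rostral WT 16. The median rostral difference of the 40 members, 0.07, was 0.06 without KO array 8 and 0.07 without WT array 16, and ran from 0.05 to 0.09 when any 1 rostral array was left out.

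Whether the KO effect differed between regions was tested as caudal KO minus WT minus rostral KO minus WT. By limma, 0 of 40 members passed after Benjamini-Hochberg adjustment, as did 0% of all genes, and 2 members and 2.89% of all genes had an unadjusted p under 0.05. Without Hnrnph2, Rbm45 and Snrnp27, 1 of 37 members had one. This comparison is made of the KO against WT differences known when the members were gathered, so nothing is read from these counts. Srsf1 had a difference of effects of -0.48 ± 0.17 (adjusted p = 1, 95% interval -0.84 to -0.12). Rbfox1, a neuronal factor that binds GCAUG, read 9.55, 9.50 and 10.05 in caudal KO against 9.15, 9.62 and 9.83 in caudal WT, and rostrally 9.68, 9.35 and 9.02 in KO against 9.76, 9.58 and 9.83 in WT. Its groups overlapped in both regions, and its difference of effects was 0.55 ± 0.28 (adjusted p = 1). On 2 of the other 3 probe sets of Rbfox1, all rostral KO arrays lay below WT, as for 6.95% of all tested probe sets.

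Next by p-value were 2 more SR genes. Srsf2, an SR protein that stays in the nucleus, read 12.16, 12.25 and 12.05 in caudal KO against 12.29, 12.30 and 12.01 in caudal WT, and rostrally 12.37, 12.53 and 12.33 in KO against 12.31, 12.26 and 12.09 in WT. Its difference of effects was -0.24 ± 0.13 (adjusted p = 1). Srsf4 had 0.17 ± 0.10 (adjusted p = 1). Snrnp27 stood at 0.36 ± 0.11 on its brighter probe set, given as a description because its rostral difference was among those that chose the group. No regional difference of the KO effect passed the adjustment over all probe sets, also where the unadjusted interval left out 0, as for Srsf1.

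The members were gathered around KO against WT differences, not caudal against rostral ones, but earlier results of these data were known. Whether those results bore on the choice of single members is not known here. Between caudal and rostral cortex 2 of 40 passed the threshold in the mean of both genotypes, against 3.64% of all genes. Rbm20 was higher and Nova1 lower in caudal cortex. The members' median was -0.02 with 14 of 40 higher in caudal cortex, and over all genes the median was -0.02 with 45% higher.

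Rbm20, best known as a splicing regulator of titin in heart muscle, lies at 19:53660989-53867083. It read 8.73, 8.56 and 7.63 in caudal KO and 8.73, 8.36 and 8.30 in caudal WT, against 7.54, 7.35 and 6.74 in rostral KO and 6.85, 7.05 and 6.90 in rostral WT. All 6 caudal arrays lay above all 6 rostral arrays, as for 0.815% of all genes. No member had all 6 caudal arrays below, as 2.38% of all genes had, and caudal KO animal 13 came closest to the rostral values. The difference was 1.31 ± 0.19, or 2.49-fold (limma, adjusted p = 0.00251), and the adjusted p stayed between 0.000153 and 0.0153 in 26 of 26 alternatives. In WT alone it was 1.53 ± 0.26 (limma, adjusted p = 0.0244) and passed in 19 of 27 alternatives, where 0.594% of all genes passed. In KO alone it was 1.10 ± 0.26 and did not pass (limma, adjusted p = 0.105, where 0.552% of all genes passed). Without caudal KO array 13 it was 1.44 and passed (limma, adjusted p = 0.0228). The difference between the genotypes, -0.44 ± 0.37, did not pass (limma, adjusted p = 1).

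Nova1 (12:46697895-46819480) read 8.04, 7.72 and 7.32 in caudal KO and 8.13, 7.63 and 7.43 in caudal WT, against 8.32, 8.63 and 9.05 in rostral KO and 8.48, 8.23 and 8.02 in rostral WT. The KO groups did not overlap, and in WT caudal animal 4 lay above rostral animal 16. The difference over both genotypes was -0.74 ± 0.16, or 0.598-fold (limma, adjusted p = 0.0287). It passed in 15 of 26 alternatives, over which the adjusted p ran from 0.0146 to 0.113. It failed when any 1 of 8 arrays was left out (KO animals 2, 8, 13 and 15 and WT animals 6, 10, 12 and 14), with limma adjusted p between 0.0586 and 0.0844. Within 1 genotype it was -0.97 in KO and -0.51 in WT, and neither passed (limma, adjusted p = 0.101 and 0.548). Nova2 differed by -0.08 ± 0.15 between the regions.

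Of 6 markers of interneurons and the ganglionic eminence, 5 were, like Nova1, lower in caudal cortex (median of all 6 -0.68). Dlx1 at -1.16 and Dlx2 at -1.06 passed (limma, adjusted p = 0.0209 and 0.0066), and Lhx6 was higher, at 0.48. The mean level of the 6 markers was 7.59, 7.71 and 7.91 in caudal KO and 7.23, 7.79 and 7.62 in caudal WT. In rostral cortex it was 7.81, 8.08 and 8.99 in KO and 8.31, 7.89 and 8.03 in WT. Array by array, markers and Nova1 had the same order in rostral KO and the opposite order in caudal KO. In caudal WT, array 4 was highest for Nova1 and lowest for the markers, and in rostral WT array 10 was highest for both. Rostral KO array 15 was highest both for these markers and for Nova1, and it also carried the high vascular and meningeal signal. The part of these cells in the Nova1 difference was not tested.

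**Figure D4:**
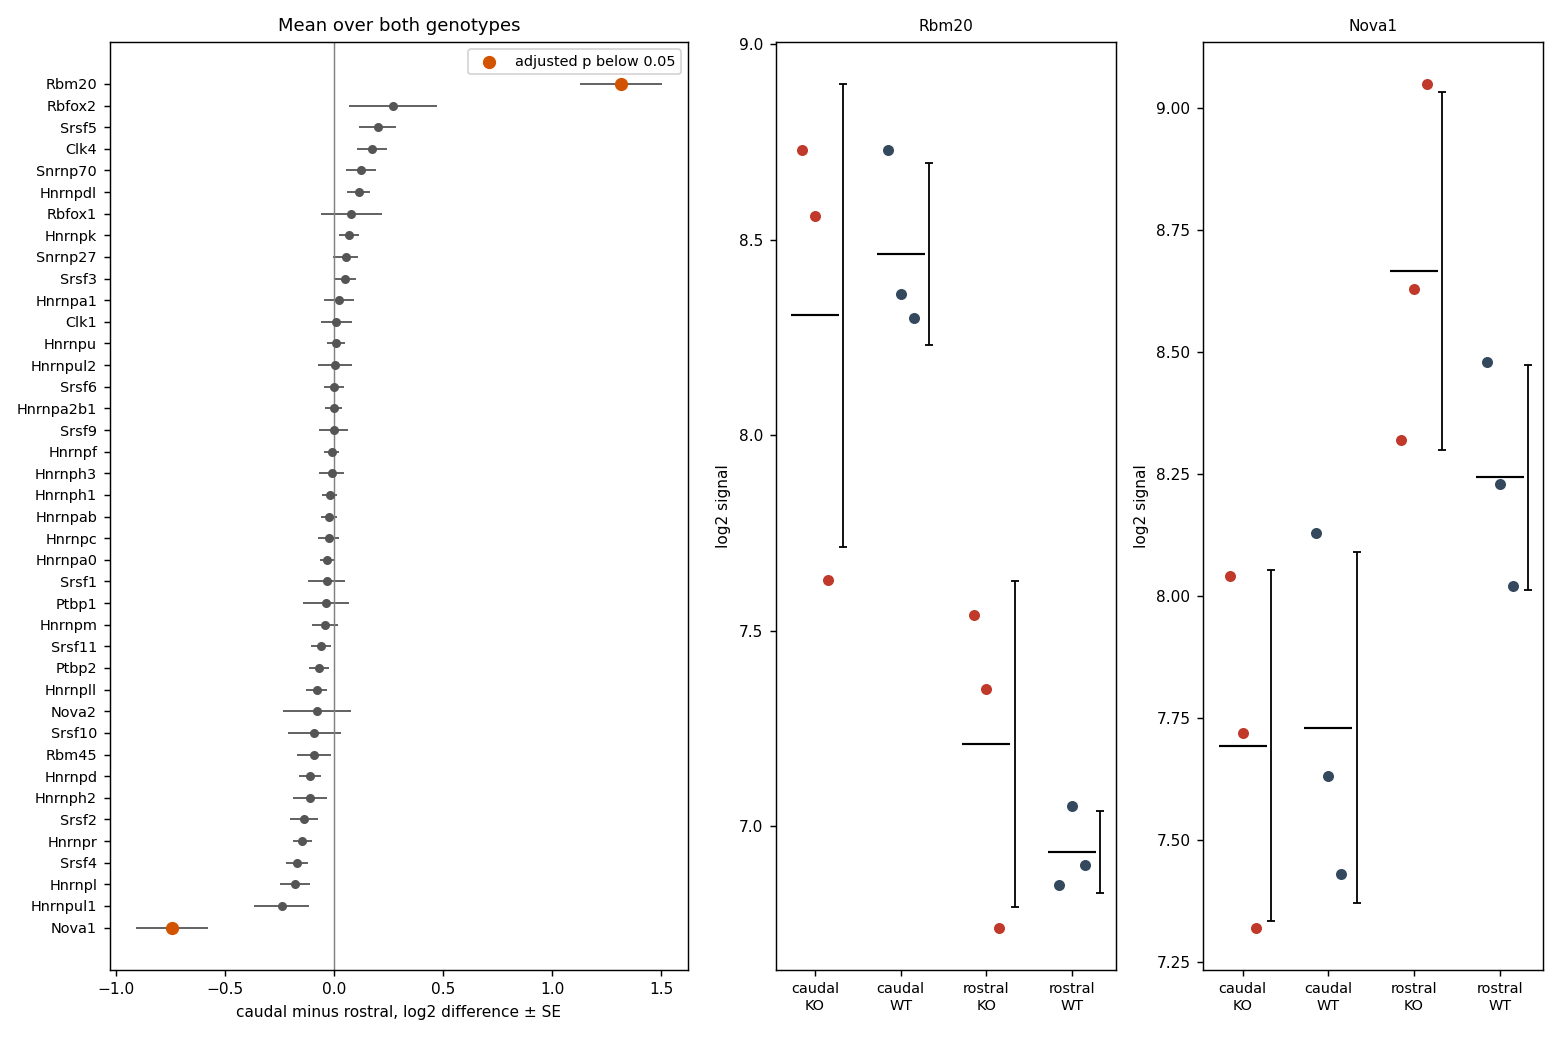
Left, caudal minus rostral on the log2 scale with its SE for the 40 tested members, averaged over both genotypes, with those past an adjusted p of 0.05 in colour; middle and right, log2 signal of Rbm20 and Nova1 on each array with group mean and SD (n = 3). Rbm20 at 1.31 and Nova1 at -0.74 stand apart from the other members, which lie between -0.24 and 0.27.

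The next members by p-value did not pass the threshold, though Srsf4 did in 1 alternative. Hnrnpr, a close relative of Syncrip, read 11.61, 11.62 and 11.60 in caudal KO and 11.59, 11.62 and 11.55 in caudal WT, against 11.78, 11.83 and 11.83 in rostral KO and 11.78, 11.62 and 11.61 in rostral WT. Its difference was -0.15 ± 0.04 (limma, adjusted p = 0.102) and turned to 0.06 when its probe sets were averaged. Srsf4 read 10.56, 10.52 and 10.65 in caudal KO and 10.53, 10.47 and 10.54 in caudal WT, against 10.64, 10.60 and 10.75 in rostral KO and 10.71, 10.78 and 10.83 in rostral WT. Its WT groups did not overlap, and the difference was -0.17 ± 0.05 (limma, adjusted p = 0.105). With animals 13 to 16 as a block Srsf4 passed (limma, adjusted p = 0.0328), and over all 26 alternatives its adjusted p ran from 0.0328 to 0.262. Srsf5, at 0.20 between the regions, also passed with the block. Clk4 read 8.84, 8.87 and 8.98 in caudal KO and 8.81, 8.71 and 8.84 in caudal WT, against 8.77, 8.61 and 8.82 in rostral KO and 8.62, 8.63 and 8.54 in rostral WT. It was the only member besides Rbm20 separated in the same direction in both genotypes (4.79% of all genes), at 0.18 ± 0.07 (limma, adjusted p = 0.233). Within 1 genotype, members other than Rbm20 and Nova1 also fell short. In KO alone 0 of 40 members passed by limma, and 9 had an unadjusted p under 0.05, beside 12.8% of all genes. There Hnrnpr differed by -0.21 ± 0.06 and Srsf2 by -0.26 ± 0.09 between caudal and rostral cortex (limma, adjusted p = 0.185 and 0.298), and Snrnp27, whose rostral KO arrays were low, by 0.23 ± 0.08. In WT alone Srsf4 differed by -0.26 ± 0.07 and Snrnp70 by 0.21 ± 0.09 (limma, adjusted p = 0.179 and 0.538). Hnrnpl read 10.60, 10.41 and 10.55 in caudal KO and 10.82, 10.56 and 10.58 in caudal WT, against 10.79, 10.61 and 10.63 in rostral KO and 10.85, 10.98 and 10.72 in rostral WT. Its WT groups overlapped through caudal animal 4, and the WT difference was -0.20 ± 0.10 (limma, adjusted p = 0.612). Between the regions over both genotypes, Hnrnph2, Rbm45 and Snrnp27 differed by -0.11 ± 0.08, -0.09 ± 0.08 and 0.06 ± 0.06, and none passed (limma, adjusted p = 0.567, 0.656 and 0.721).

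Other splicing genes were read for comparison from 4 lists of 129 genes, of which 118 were tested. No gene of these lists passed between KO and WT in either region or in the mean, and the medians were -0.01 in caudal and -0.01 in rostral cortex, with 58 of 118 higher in rostral KO. By list, 7 of 14 snRNP and Sm protein genes, 9 of 30 core spliceosome genes, 11 of 19 genes of SR-like proteins and SR kinases, and 31 of 55 other regulators were higher in rostral KO. Smallest by p in the mean of both regions were Celf2, a regulator of neuronal exons, at 0.17 ± 0.05, Dhx15, a helicase that takes spliceosomes apart, at 0.25 ± 0.08, and the Sm protein gene Snrpb at -0.19 ± 0.06. Between the regions 4 of the 118 passed, beside the 3.64% of all genes. Pcbp2 and Pcbp4, which bind poly(C), were lower in caudal cortex by -0.26 ± 0.05 and -0.32 ± 0.06 (limma, adjusted p = 0.00817 and 0.0170). Rbfox3, the neuronal nuclear antigen NeuN, was higher by 0.37 ± 0.08 and Khdrbs2, a STAR-family factor of neurons, by 0.34 ± 0.08 (limma, adjusted p = 0.0226 and 0.0444).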

How the data were processed

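The deposited table holds 1 value per probe set and array, 45101 probe sets on 12 arrays. The deposited values were taken as log2 signals from their range (-3.81 to 14.02), the log base not being given in the sources used here, and near-equal medians of 5.21 show that they had been normalised between arrays; the method is not given in the sources used here. Per the labels' protocols, 400 ng of total RNA were amplified and biotin-labelled for 1-colour hybridisation. Values were used as deposited.

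The fit used limma 3.58.1 in R 4.3.3 with 1 mean per group and eBayes with trend, on 8 residual plus 5.00 prior degrees of freedom. It covered the 21288 probe sets that named 1 gene and exceeded 5.21 on at least 3 arrays. P-values were two-sided and adjusted by Benjamini-Hochberg over all of them, in 7 comparisons, with a threshold of 0.05. Each of 11785 genes was represented by its tested probe set of highest mean. All 40 such member probe sets were above the filter on all 12 arrays. Of the 112 tested, 105 were above it on all arrays and 7 on fewer. The steps were tested on simulated data. The number of arrays limits the precision, and each p-value sets a difference against the spread between these arrays within groups.

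The members and all gene lists were chosen with earlier results of these data known. Array values are given for the 3 genes of the question, the H and F paralogs, Snrnp70 and, per comparison, called members or else the 5 members lowest in p. Positions and upstream sequences are RefSeq's on GRCm38.p6.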

Additional observations from a re-analysis of the deposited data

How the results depend on the processing

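No paired analysis was possible because no animal number is shared between groups. Of 1798 recomputed values over 28 settings, 1718 stayed on their side of the threshold or, where no test was made, within 1 SD (counts within 1.5 times), 50 moved by more, 19 no longer passed, 9 newly passed and 2 tested differences reversed. Of 1592 differences and medians among them, 18 had the opposite sign, from reported values of at most 0.205 in size to at most 0.061; apart from Hnrnpr and medians these were untested KO differences of Snrnp27, Hnrnph3, Hnrnpf and Snrnp70. The count of members passing between caudal and rostral cortex, 2 in the mean of both genotypes, was 1 (Rbm20) without the intensity trend, without the arrays of high Xist and with animals 1 to 12 only, and 4 with animals 13 to 16 as a block (Nova1, Rbm20, Srsf4 and Srsf5). In WT it was 1 and became 0 without the trend and without the high-Xist arrays. In KO it was 0 and became 3 with array weights (Nova1, Rbm20 and Snrnp27), 3 with the block (Nova1, Rbm20 and Srsf2) and 1 (Rbm20) with animals 1 to 12. The rostral KO arrays of Snrnp27 were part of the difference it was chosen for, so nothing is read from its call. KO against WT in the mean of both regions, 0 members as reported, gave 2 (Hnrnph2 and Rbm45) with array weights and with the block. It gave 1 (Rbm45) with animals 1 to 12. Over all 21288 probe sets tested, 11 passed with array weights, 26 with the block and 2 with animals 1 to 12. Both genes were chosen for their KO against WT difference, so nothing is read from these member counts.

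Leaving out 1 array at a time gave 1 to 2 members for the regions in the mean of both genotypes, 0 to 1 in KO and 0 to 1 in WT; the regional call in WT was lost whenever any 1 of the 6 WT arrays was left out. Hnrnpr reversed between the regions when its probe sets were averaged, to 0.061 over both genotypes and 0.007 in KO. The probe sets called over the whole table changed by more than 1.5 times in several settings: 599 between the regions became 1163 with the block, 93 in KO became 565 with array weights and 382 with the block, 95 in WT became 280 with the block, and 3 for KO against WT became 26 with the block and 11 with array weights. Other settings lowered them: to 343 between the regions and 26 in KO without rostral KO array 8, to 20 in WT without rostral WT array 10 and 23 without the high-Xist arrays, and to 0 for KO against WT without the high-Xist arrays. The cause was not tested.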

Other observations

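Hnrnpa3, an A/B-type hnRNP, was measured on 4 probe sets that also name the pseudogene Gm6793, so the 2 sources cannot be told apart. KO minus WT on them was -0.05, -0.09, 0.13 and 0.11 in caudal cortex and 0.29, 0.07, 0.13 and 0.21 in rostral cortex. On 1 of the 4, 1452712_at, rostral KO (10.59, 10.69 and 10.68) lay above rostral WT (10.44, 10.55 and 10.57). A further 3 probe sets named Hnrnpa1 beside processed copies of it. On these, KO minus WT was -0.06, -0.14 and 0.01 in caudal cortex and 0.05, 0.17 and 0.11 in rostral cortex. All 7 of these probe sets, which stand outside the 112 tested, were higher in rostral KO by mean, without overlap on 3 (5.64% of all tested probe sets lay so). They were not in the fit and no test was made.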
